A study of Mus musculus with 24 samples.

Results

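The mouse genes named Zfp followed by a number encode zinc finger proteins, and 161 of the 366 such protein-coding genes had a region in the deposited H3K9me2 tables. A gene was counted when a listed region overlapped its RefSeq gene body or lay within 2 kb of it, and Zfp36 was left out. These 161 genes took 520 of the 53386 listed regions, covering 1489.4 kb. A gene was called clustered when another Zfp gene lay within 200 kb on the same chromosome, whether or not that neighbour had a region, and lone otherwise. By this rule 87 of 230 clustered genes (37.8%) and 74 of 136 lone genes (54.4%) had a region, with 202 and 318 regions respectively. Of the 520 regions, 46 held no read in any library, 185 overlapped another listed region, 22 were shared by neighbouring members and 74 also lay at another protein-coding gene. The long lone genes Zfp423 and Zfp469 alone supplied 75 of the 318 lone regions.

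H3K9me2, dimethylation of histone H3 at lysine 9, marks repressed chromatin, and the enzymes encoded by Ehmt2 and Ehmt1 place most of it. Many Zfp genes encode KRAB zinc finger proteins, DNA-binding repressors that recruit Trim28 and, through it, the methyltransferase Setdb1 to retrotransposons and other targets. Genes of this family arose by tandem duplication and often sit in clusters of related copies. Many of the lone Zfp genes described below encode zinc finger transcription factors outside those arrays.

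The hearts came from 6 C57BL6 mice, 3 female and 3 male, aged 12 months. All had undergone ischemic preconditioning, with 4 rounds in which 5 min of left coronary occlusion alternated with 5 min of reflow, and a last reflow of 30 min. Every heart gave 2 biopsies, the area at risk, downstream of the occluded artery, and remote myocardium, which kept its flow. H3K9me2 chromatin and input chromatin, the same digested DNA without precipitation, were sequenced from each biopsy, giving 4 groups of 6 libraries paired by mouse. Sham hearts were not analysed here, so the remote myocardium is tissue of the same preconditioned heart. Biopsies hold all cell types of the heart, and a change in cell makeup cannot be told apart from a change of the mark within a cell type.

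Clustered and lone genes differed at their start sites, so 6 promoter windows are shown first. Among regions that cover a listed start, they belong to the 3 with the lowest and the 3 with the highest H3K9me2 over input in the remote myocardium, and were chosen after these values were seen. Each window runs from 250 bases before to 50 bases after the RefSeq start on GRCm38.p6, written 5′ to 3′, with CG dinucleotides in capitals. The first 3 lay under regions with less H3K9me2 than input and the last 3 under regions with more.
Zfp46 (chr4:136284426-136284725, plus strand): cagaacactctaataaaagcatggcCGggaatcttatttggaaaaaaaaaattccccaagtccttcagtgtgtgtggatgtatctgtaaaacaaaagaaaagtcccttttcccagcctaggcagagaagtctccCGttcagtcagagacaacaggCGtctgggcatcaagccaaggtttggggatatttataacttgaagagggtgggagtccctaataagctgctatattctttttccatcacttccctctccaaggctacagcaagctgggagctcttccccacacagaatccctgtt
Zfp592 (chr7:80993434-80993733, plus strand): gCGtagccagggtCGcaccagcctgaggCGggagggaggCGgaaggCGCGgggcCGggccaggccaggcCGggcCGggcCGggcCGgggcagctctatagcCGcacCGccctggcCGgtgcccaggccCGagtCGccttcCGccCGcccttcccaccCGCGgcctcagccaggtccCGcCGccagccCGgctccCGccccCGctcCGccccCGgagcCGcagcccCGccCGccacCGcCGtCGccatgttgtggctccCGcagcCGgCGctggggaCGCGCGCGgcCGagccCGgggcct
Zfp217 (chr2:170131171-170131470, minus strand): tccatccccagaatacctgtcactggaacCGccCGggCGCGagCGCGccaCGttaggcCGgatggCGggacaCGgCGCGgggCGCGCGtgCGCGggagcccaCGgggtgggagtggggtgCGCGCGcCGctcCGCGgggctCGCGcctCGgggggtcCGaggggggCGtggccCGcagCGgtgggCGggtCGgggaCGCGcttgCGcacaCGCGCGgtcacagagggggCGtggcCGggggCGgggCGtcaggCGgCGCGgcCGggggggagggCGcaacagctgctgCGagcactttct
Zfp235 (chr7:24132122-24132421, plus strand): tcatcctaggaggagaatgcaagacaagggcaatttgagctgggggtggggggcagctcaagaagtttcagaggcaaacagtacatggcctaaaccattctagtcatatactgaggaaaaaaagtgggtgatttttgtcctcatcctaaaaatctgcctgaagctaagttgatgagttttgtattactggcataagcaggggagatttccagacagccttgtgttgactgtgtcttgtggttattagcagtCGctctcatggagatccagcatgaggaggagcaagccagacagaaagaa
Zfp936 (chr7:43177340-43177639, plus strand): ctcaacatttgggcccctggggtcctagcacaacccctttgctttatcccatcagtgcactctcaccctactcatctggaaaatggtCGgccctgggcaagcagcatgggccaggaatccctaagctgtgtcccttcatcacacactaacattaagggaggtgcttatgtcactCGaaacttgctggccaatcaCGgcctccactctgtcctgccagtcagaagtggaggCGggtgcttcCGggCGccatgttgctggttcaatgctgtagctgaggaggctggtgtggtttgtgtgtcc
Zfp985 (chr4:147553027-147553326, plus strand): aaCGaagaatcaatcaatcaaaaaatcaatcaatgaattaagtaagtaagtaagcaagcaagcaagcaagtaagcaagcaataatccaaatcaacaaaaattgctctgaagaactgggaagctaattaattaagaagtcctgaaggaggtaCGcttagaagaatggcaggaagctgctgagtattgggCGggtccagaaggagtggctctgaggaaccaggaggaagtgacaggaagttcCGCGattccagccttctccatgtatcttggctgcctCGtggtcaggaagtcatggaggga
The windows of Zfp592 and Zfp217 hold 42 and 49 CG dinucleotides. That of Zfp46 holds 3, and a second listed start of Zfp46 under the same region, not shown, holds 18. Those of Zfp235, Zfp936 and Zfp985 hold 1, 6 and 6. The median over all 32851 windows in the RefSeq table is 7.

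Counts in the listed regions ran from 416683 to 1196368 per H3K9me2 library and from 1286383 to 2478668 per input library. Values below are counts scaled to the library total (CPM), with TMM factors over all 24 libraries, and their spread is the SD over 6 mice. At these totals the lowest H3K9me2 values of single regions, as at Zfp217, Zfp46, Zfp335 and Zfp704, stand for very few reads. Fold changes come from edgeR fits on the whole table with adjustment over every tested region, and a region was called at an adjusted p (FDR) under 0.05. A positive log2 fold change means more H3K9me2 than input, or more in the area at risk than in the remote myocardium. Scaling makes each value relative to the other listed regions, so a shift alike in all of them cannot be seen. The share of input counts in X-chromosomal regions ran from 0.126% to 0.180% in libraries labelled female and from 0.0623% to 0.0818% in those labelled male.

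The comparison of H3K9me2 with input asks which Zfp genes carry the mark in each tissue. In the area at risk, 390 regions of 152 Zfp genes were tested. Of these, 36 (9.23%) were higher and 53 (13.6%) lower in H3K9me2 than in input, against 11.3% higher and 12.3% lower (23.6% in all) over the 40928 tested regions. In the remote myocardium 76 of 391 (19.4%) were higher and 91 (23.3%) lower, against 20.5% and 20.0% (40.5% in all) of 40767 regions. DESeq2 called 62 and 143 Zfp regions, with 14.3% and 27.4% called over all regions. By direction alone, 33 Zfp regions were higher and 58 lower in 6 of 6 mice in the area at risk (9.46% and 13.3% over all regions), and 59 and 77 in the remote myocardium (14.9% and 16.6%). The Zfp genes as a whole thus lay near the background in both directions, and their median log2 fold change was -0.04 for the area at risk and -0.02 for the remote myocardium, against 0.01 over all regions in both. The same regions were seen in both tissues to a large extent. Of the 53 lower regions in the area at risk 49 (92.5%) were also called lower in the remote myocardium, where they made up 53.8% of the lower calls. Of the 36 higher ones 34 (94.4%) were called higher there as well, 44.7% of the higher calls. No region was called in opposite directions. Both tissues came from the same mice, with separate libraries. The same overlap over all regions was not computed, so these shares cannot be read as a trait of Zfp genes.

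**Figure D1:**
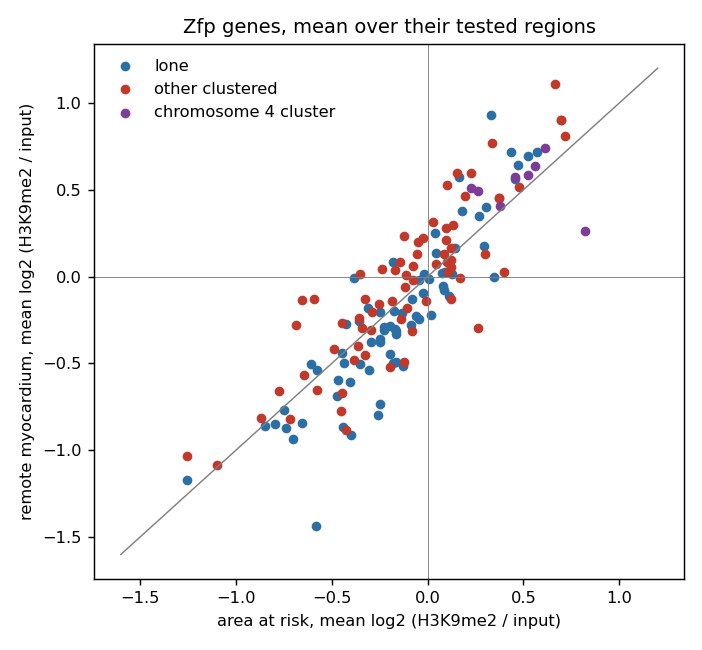
Mean log2 fold change of H3K9me2 over input across the tested regions of each of 151 Zfp genes, in the area at risk (x axis) and the remote myocardium (y axis), with lone genes in blue, the chromosome 4 cluster in purple and other clustered genes in red; the diagonal marks equal values. The sign was the same for 130 of the 151 genes.

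The calls differed in part between clustered and lone genes, and several of the shares lay near those over all regions. Over all tested regions 11.3% were higher and 12.3% lower in the area at risk, and 20.5% and 20.0% in the remote myocardium. Among clustered genes 21 of 139 tested regions (15.1%) were higher and 18 (12.9%) lower than input in the area at risk. In the remote myocardium 32 (22.5%) and 26 (18.3%) of 142 clustered regions were. DESeq2 called 12 clustered regions higher and 13 lower in the area at risk, and without mouse 30 the edgeR count of lower ones was 11. Among lone genes 15 of 251 (5.98%) were higher and 35 (13.9%) lower in the area at risk, and 44 (17.7%) and 65 (26.1%) of 249 in the remote myocardium. When each gene was given the mean of its regions, the median was -0.07 for 80 clustered and -0.17 for 72 lone genes in the area at risk, and 0.03 and -0.26 in the remote myocardium. Summed over each class, the log2 ratio of H3K9me2 to input was higher in clustered than in lone genes in 6 of 6 mice in both tissues. The difference averaged 0.19 ± 0.06 for the area at risk and 0.27 ± 0.05 for the remote myocardium (SD, n = 6). Most of it came from the chromosome 4 cluster described below. Without that cluster it was -0.01 ± 0.05, with 2 of 6 mice above 0, and 0.07 ± 0.04, with 6 of 6 above 0. This is a description of the members with no test, since genes are not replicates of a condition. Per kb of region, clustered genes held 7.01 ± 0.75 CPM of H3K9me2 against 6.41 ± 0.48 CPM of input in the area at risk, and lone genes 6.46 ± 0.13 against 6.76 ± 0.16. In the remote myocardium the corresponding levels per kb were 7.02 ± 0.40 and 6.27 ± 0.17 for clustered genes, and 6.36 ± 0.10 and 6.86 ± 0.07 for lone genes. The area-at-risk libraries of clustered genes varied most, from 6.14 to 7.93 CPM per kb of H3K9me2 and from 5.85 to 7.05 of input. Genes near the 200 kb limit were few. Just inside it were Zfp467 (gap 156 kb, gene means 0.12 for the area at risk and 0.10 for the remote myocardium) and Zfp629 (157.9 kb, -0.65 and -0.56). Just outside it were Zfp516, a transcriptional activator of brown fat genes (216.8 kb, -0.17 and -0.20), and Zfp414 (234.5 kb, -0.02 and 0.02).

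At start sites, lone genes held the least H3K9me2. A region was placed at a start site when it lay within 2 kb of a RefSeq start, which could be done for the 127 of 161 genes with a strand in the promoter table. Of 47 tested start-site regions of lone genes, 21 (44.7%) were lower than input in the area at risk and none was higher, with a median log2 fold change of -0.45. In the remote myocardium 28 of 47 (59.6%) were lower and 3 higher, with a median of -0.64. Of 54 tested start-site regions of clustered genes, 10 (18.5%) were lower and 4 higher in the area at risk, and 12 (22.2%) lower and 7 higher in the remote myocardium, with medians of -0.06 and -0.01. Start sites of other protein-coding genes lay between the classes, with 33.2% of 6951 and 45.5% of 6920 lower and medians of -0.34 and -0.39. Summed over all their start-site regions, lone genes held 4.83 ± 0.30 CPM of H3K9me2 per kb against 6.63 ± 0.36 of input in the area at risk, and 4.52 ± 0.49 against 6.75 ± 0.13 in the remote myocardium. In both tissues every H3K9me2 library lay below every input library. Clustered genes held 6.61 ± 0.51 against 7.15 ± 0.19 and 6.56 ± 0.24 against 6.88 ± 0.18. The log2 ratio was higher in clustered than in lone genes by 0.34 ± 0.11 in the area at risk and by 0.52 ± 0.20 in the remote myocardium, in 6 of 6 mice each.

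**Figure D2:**
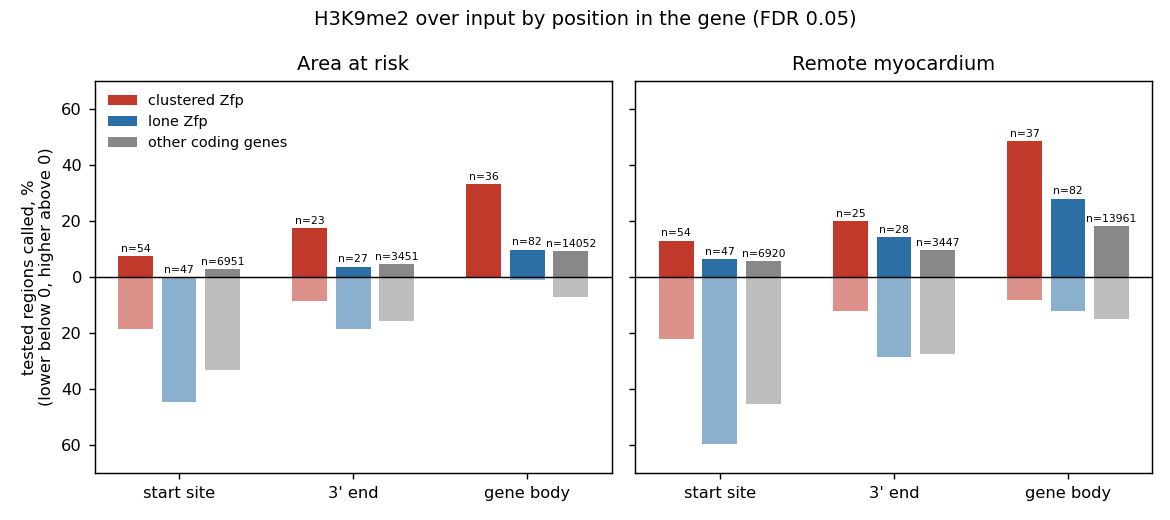
Share of tested regions called higher (above 0, solid) or lower (below 0, pale) in H3K9me2 than in input at an FDR of 0.05, by position in the gene, for clustered Zfp genes, lone Zfp genes and other protein-coding genes, with the number tested above each bar. Lone start sites had the tallest lower bars of the 3 classes in both tissues (44.7% and 59.6%), and clustered gene bodies the tallest higher bars (33.3% and 48.6%).

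The lowest start sites belonged to lone genes, to Zfp46, Zfp592 and Zfp217 in the remote myocardium and to Zfp217, Zfp46 and Zfp740 in the area at risk. Zfp217 encodes the counterpart of a human oncoprotein that works with co-repressors of the CtBP and CoREST type. Its start region, chromosome 2 from 170130200 to 170131599, held 1.87 to 6.85 CPM of H3K9me2 in the area at risk (median 2.73) against 10.2 to 20.2 of input (median 14.1). Remote tissue held 2.30 to 6.31 (median 5.02) against 12.6 to 16.4 (median 14.4). H3K9me2 and input did not overlap in either tissue, though the lowest H3K9me2 values stand for very few reads. The log2 fold changes were -1.95 (SE 0.35, edgeR adjusted p 3.74e-05) and -1.57 (SE 0.31, adjusted p 8.04e-06), lower in 6 of 6 mice in each.

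Zfp46 had its start region on chromosome 4 from 136284600 to 136286799. H3K9me2 ran from 1.87 to 10.9 CPM (median 4.28) in the area at risk. Its remote range was 1.50 to 11.9 (median 4.35). Input ran from 11.0 to 22.7 (median 20.4) and from 14.4 to 26.4 (median 18.5). The highest H3K9me2 library stayed below the lowest input library in both tissues. The log2 fold changes were -1.65 (SE 0.30, edgeR adjusted p 6.47e-05) and -1.74 (SE 0.28, adjusted p 1.12e-07).

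Zfp592 encodes a partner of Zmynd8 and Zfp687 in a chromatin-associated complex. Its start region, chromosome 7 from 80992800 to 80994799, held 3.42 to 21.0 CPM of H3K9me2 (median 8.82) against 16.4 to 35.1 of input (median 26.9) in the area at risk. The remote values were 4.60 to 11.9 (median 7.54) against 21.3 to 31.0 (median 24.5). The groups overlapped in the area at risk, where mouse 23 had the highest H3K9me2, and did not overlap in the remote myocardium. The log2 fold changes were -1.27 (SE 0.24, edgeR adjusted p 0.000115) and -1.71 (SE 0.24, adjusted p 7.16e-10).

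Other genes among the 10 lowest in a tissue were mostly lone and mostly low at the start. Zfp740 had -1.52 in the area at risk at a start region it shares with the window of Csad. Zfp367 had -1.25 and -1.17, and Zfp710 -1.24 and -1.17, in the area at risk and the remote myocardium. Zfp219, which encodes a partner of Sox9 in cartilage, had -1.14 and -1.51 at a region that also lies near Tmem253. The remote list held Zfp827, whose human counterpart recruits the NuRD complex to telomeres (-1.34), Zfp654 at a region that also lies near Cggbp1 (-1.44), and Zfp335 and Zfp469, described below. The lists took only regions called lower by edgeR and lower in 6 of 6 mice, so both traits were fixed by the choice.

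The clustered genes on the list of the area at risk were Zfp668 with Zfp646, Zfp672 and Zfp397. Zfp668 and Zfp646 are neighbours that share a start region, chromosome 7 from 127874200 to 127877199. It held 9.79 to 16.8 CPM of H3K9me2 (median 12.1) against 25.2 to 35.2 of input (median 32.0) in the area at risk. The remote libraries held 9.03 to 23.0 (median 17.6) against 25.3 to 32.8 (median 28.7), again without overlap. Its log2 fold changes were -1.26 (SE 0.20, edgeR adjusted p 6.10e-06) and -0.83 (SE 0.19, adjusted p 0.000147). Zfp672 had -1.25 at a start region near Sh3bp5l, and Zfp397 -1.14 at a region near Zscan30.

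**Figure D3:**
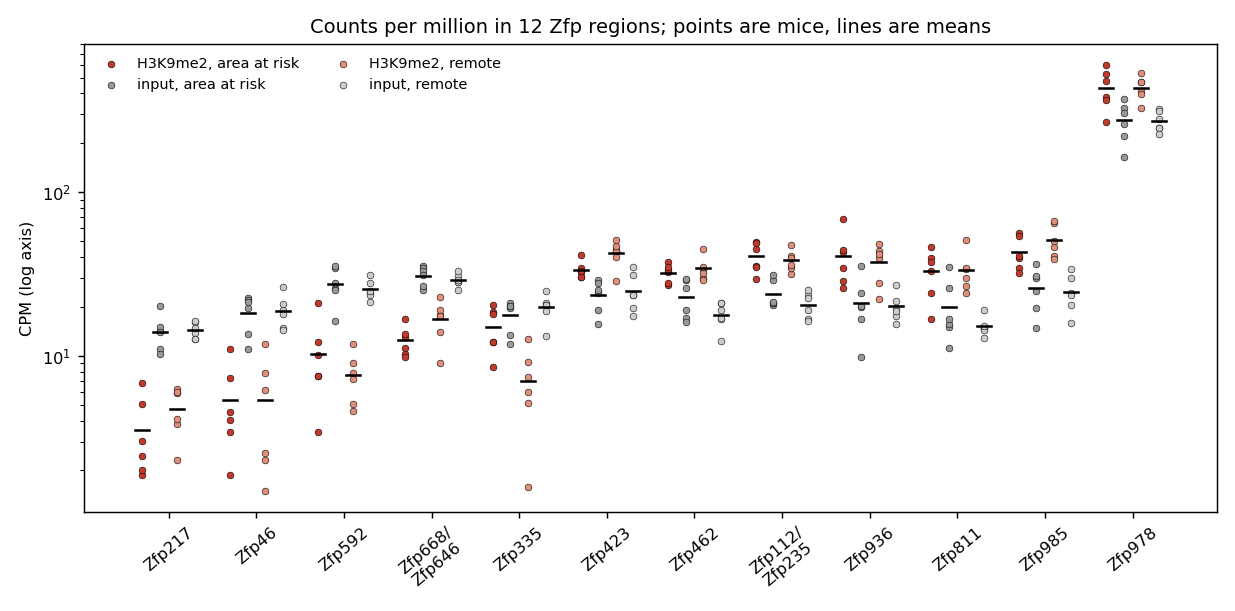
CPM (log axis) in 12 regions of named Zfp genes, each point a mouse and each line a group mean, with H3K9me2 in red tones and input in grey for the area at risk and the remote myocardium. H3K9me2 lies under input in the regions of Zfp217, Zfp46, Zfp592 and Zfp668/Zfp646 and over it from Zfp423 to Zfp978, and in the Zfp335 region the remote H3K9me2 mean is the lowest of the 4, with points that overlap other groups.

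Start windows of the Zfp genes with a listed region held more CG dinucleotides than most promoters, and those of lone genes held the most. The promoters compared were all windows of the RefSeq table, with or without a listed region. The median was 18 over the 164 listed starts of the members, and 75.0% of them held at least 10, against a median of 7 and 43.5% over all 32851 windows. Among starts under a tested region the median was 17 for 31 clustered genes and 25 for 32 lone genes, and 67.7% and 90.6% held at least 10. Across these 63 genes a higher CG count went with less H3K9me2 over input, with a Pearson correlation of -0.59 for the area at risk and -0.61 for the remote myocardium (Spearman -0.55 and -0.62). These points share libraries and base composition, and the correlations are descriptions. Among windows with at least 10 CG dinucleotides, 21 of 29 lone and 7 of 21 clustered genes were lower than input in the remote myocardium, with medians of -0.73 and -0.32. For the area at risk the counts were 17 of 29 and 6 of 21, with medians of -0.57 and -0.25. Among windows with fewer, 4 of 10 clustered genes were higher in the remote myocardium (median 0.37) and 1 was lower. Zfp46, with 3 CG dinucleotides in its first window and a log2 fold change of -1.74, lay apart from this relation. For 13 genes with several starts under tested regions the first listed was used, and with the start richest in CG the Pearson correlations were -0.63 and -0.64. The part of CG content in the class difference was not tested.

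**Figure D4:**
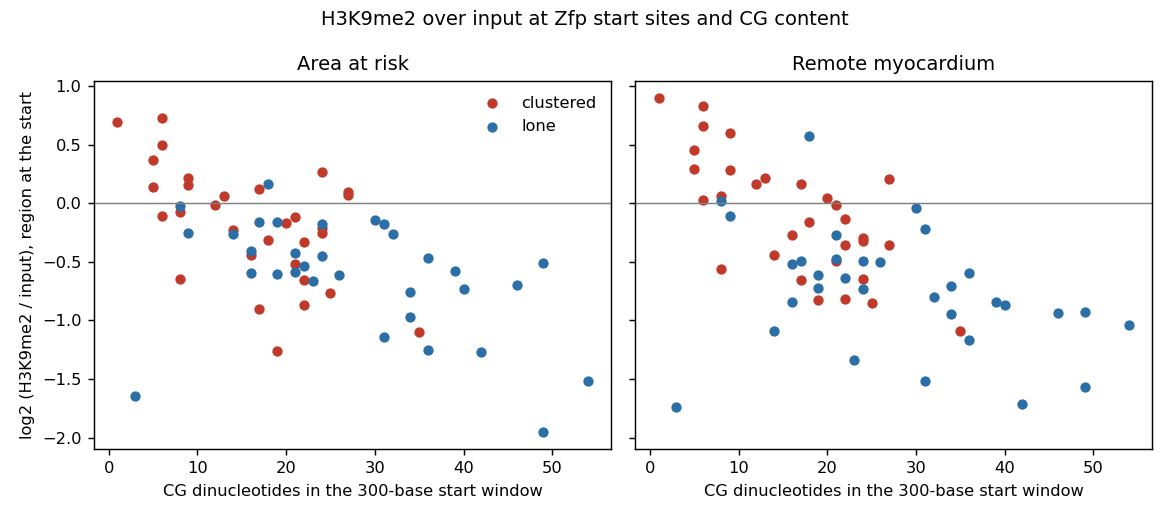
Log2 fold change of H3K9me2 over input in the region at the start of each of 63 Zfp genes (y axis) against the number of CG dinucleotides in its 300-base RefSeq start window (x axis), for the area at risk and the remote myocardium. Values fall with the CG count in both tissues (Pearson -0.59 and -0.61), lone genes (blue) reach the highest CG counts, and the blue point at 3 is the first listed start of Zfp46.

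Inside gene bodies the median of clustered genes lay above that of lone genes only with the chromosome 4 cluster included. With it the median log2 fold changes were 0.31 against 0.11 in the area at risk and 0.33 against 0.06 in the remote myocardium. Clustered genes were higher than input in 12 of 36 body regions (33.3%) in the area at risk and 18 of 37 (48.6%) in the remote myocardium. Lone genes were higher in 8 of 82 (9.76%) and 23 of 82 (28.0%), against 9.36% and 18.3% of the body regions of other protein-coding genes. Most of the excess in clustered genes came from a single cluster on chromosome 4. Without it the body medians of clustered genes were 0.02 and 0.004. The body regions higher were then 3 of 23 (13.0%) and 7 of 24 (29.2%), against 9.76% and 28.0% for lone genes. The start-site counts were 10 and 12 lower of 49.

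The chromosome 4 cluster spans 146502000 to 147812229 and takes in 10 Zfp genes. It includes 9 with a listed region, Zfp981, Zfp993, Zfp978, Zfp991, Zfp988, Zfp982, Zfp985, Zfp534 and Zfp984. It is an array of KRAB zinc finger genes, a kind of array known to repress retrotransposons in embryonic stem cells. Of its 56 regions, 9 held no read. In the area at risk 14 of 25 tested regions were higher than input and none lower, with a median of 0.62. DESeq2 called only 7 of these higher, while the fit with the mouse as a block called 17, and the edgeR count fell to 9 without mouse 27. Of 26 tested in the remote myocardium 17 were higher and none lower, with a median of 0.61, and DESeq2 called 15. Summed over the cluster, the log2 ratio of H3K9me2 to input was 0.64 ± 0.10 in the area at risk (0.52 to 0.75 over the 6 mice) and 0.66 ± 0.09 in the remote myocardium (0.50 to 0.72). Other clustered genes had -0.07 ± 0.06 and -0.04 ± 0.03, and lone genes -0.06 ± 0.04 and -0.11 ± 0.02. Without the cluster the clustered and lone classes differed by -0.01 ± 0.05 in the area at risk, with 2 of 6 mice above 0, and by 0.07 ± 0.04 in the remote myocardium, with 6 of 6 above 0.

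**Figure D5:**
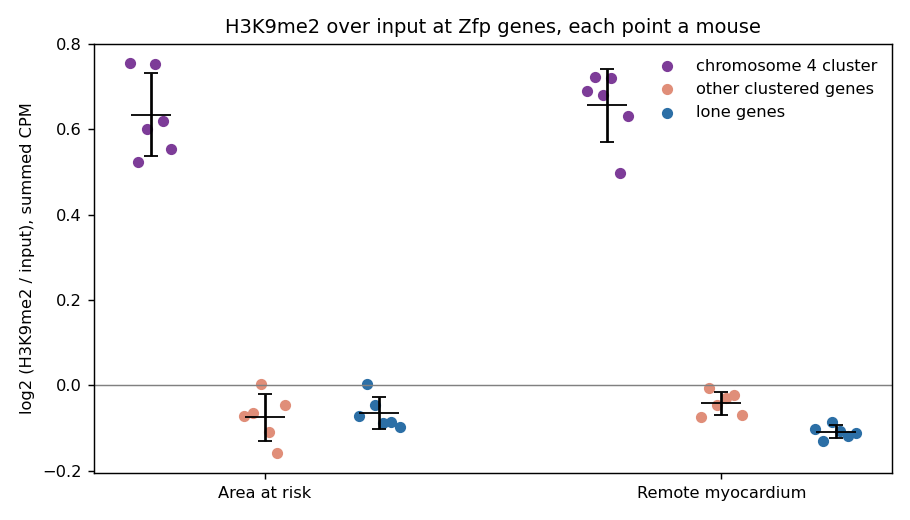
Log2 ratio of summed H3K9me2 to summed input CPM over the regions of the chromosome 4 cluster (purple), other clustered Zfp genes (orange) and lone Zfp genes (blue), each point a mouse, with bars for the mean ± SD of 6 mice. The cluster lies between 0.50 and 0.75 in all mice of both tissues, and the other sets lie near 0 or below it.

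Within the cluster Zfp985 and Zfp982 were higher across the gene. All 6 regions of Zfp985 were called higher in both tissues, with gene means of 0.62 and 0.74. Of the 6 regions of Zfp982, 4 were called higher in the area at risk and all 6 in the remote myocardium, with gene means of 0.56 and 0.64. The Zfp985 body region from 147563000 to 147564999 held 32.0 to 56.5 CPM of H3K9me2 (median 40.1) against 14.8 to 36.2 of input (median 27.2) in the area at risk. Remote tissue held 39.0 to 66.2 (median 48.2) against 15.8 to 33.7 (median 23.9). The groups overlapped in the area at risk and not in the remote myocardium, and every mouse was higher in both. Its log2 fold changes were 0.74 (SE 0.18, edgeR adjusted p 0.00179) and 1.00 (SE 0.15, adjusted p 4.74e-09).

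Zfp993 and Zfp978 had the most regions, 19 and 14, of which 6 and 2 passed the filter on low counts. The Zfp993 region from 146716400 to 146724799 held 10.9 to 19.6 CPM of H3K9me2 (median 15.6) against 3.46 to 10.2 of input (median 5.80) in the area at risk, without overlap. Its remote values were 10.3 to 20.5 (median 14.4) against 4.25 to 8.64 (median 7.91), also without overlap. The log2 fold changes of 1.30 (SE 0.30, edgeR adjusted p 0.000993) and 0.96 (SE 0.26, adjusted p 0.00153) placed it among the highest members in both tissues. A Zfp978 region of 16800 bases, from 147389400 to 147406199, held 268 to 594 CPM of H3K9me2 (median 427) against 163 to 372 of input (median 282) in the area at risk. The remote range was 324 to 533 (median 440) against 226 to 323 (median 263). The groups overlapped in the area at risk only, with log2 fold changes of 0.65 (SE 0.13, edgeR adjusted p 0.000262) and 0.66 (SE 0.07, adjusted p 3.63e-14). Input in the cluster varied between libraries, from 3.15 to 6.75 CPM per kb in the area at risk, against 6.69 to 7.18 for other clustered genes. In mouse 23 it was 3.15 for the area at risk and 5.76 for the remote myocardium. Genes of this cluster are near copies of each other, and how reads that match several places were treated is not given in the sources used here, so the values of its single genes are uncertain.

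The other large clusters differed in direction, each with few tested regions. Only their genes with a listed region are named. Over all tested regions 11.3% were higher and 12.3% lower in the area at risk, and 20.5% and 20.0% in the remote myocardium. At start sites of other protein-coding genes 33.2% and 45.5% were lower. Counts below such as 1 of 7 higher and 2 of 12 lower in the area at risk lie near the shares over all regions. Zfp180, Zfp112, Zfp235, Zfp111, Zfp108, Zfp93, Zfp94, Zfp428 and Zfp575 lie on chromosome 7 from 24081877 to 24587840, and 1 of 7 tested regions was higher in the area at risk and 4 of 7 in the remote myocardium, none lower, with medians of 0.17 and 0.45. Here the region at the start of Zfp235, which also lies near Zfp112, from 24129600 to 24132599, held 29.3 to 49.7 CPM of H3K9me2 (median 40.1) against 20.3 to 31.1 of input (median 21.2) in the area at risk. Remote libraries held 31.6 to 47.4 (median 37.7) against 16.2 to 25.3 (median 20.7), without overlap. Its log2 fold changes were 0.69 (SE 0.17, edgeR adjusted p 0.00188, higher in 5 of 6 mice) and 0.90 (SE 0.16, adjusted p 1.25e-06, higher in 6 of 6). By contrast, Zfp553, Zfp771, Zfp768, Zfp747, Zfp764, Zfp688 and Zfp629, on chromosome 7 from 127233061 to 127615785, had 5 of 12 regions lower in each tissue and none higher, with medians of -0.41 and -0.42. The Zfp768 region had the lowest values there, -1.10 and -1.09. Zfp628, Zfp579, Zfp524, Zfp865, Zfp784 and Zfp580, on chromosome 7 from 4915181 to 5053723, had 2 and 5 of 12 regions lower and none higher, with a median of -0.28 in each. In the cluster of Zfp282, Zfp956, Zfp777 and Zfp746, on chromosome 6 from 47877209 to 48086986, none of 8 tested regions was called by edgeR and 1 was called lower by DESeq2 in each tissue, with medians of 0.12 and 0.04.

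Among clustered genes outside these 5 clusters, the highest regions called in the same direction in 6 of 6 mice belonged to Zfp936 and Zfp811. The Zfp936 body region, chromosome 7 from 43124600 to 43126799, held 26.1 to 68.5 CPM of H3K9me2 (median 38.7) against 9.89 to 35.4 of input (median 19.9) in the area at risk. The remote biopsies held 22.2 to 48.1 (median 40.7) against 15.6 to 27.1 (median 19.2). The groups overlapped in both tissues, while all 6 mice were higher in each. Its log2 fold changes were 0.95 (SE 0.21, edgeR adjusted p 0.000721) and 0.84 (SE 0.17, adjusted p 1.09e-05). The region at the end of Zfp811, chromosome 17 from 32792200 to 32794399, held 24.1 to 51.2 CPM of H3K9me2 (median 31.9) against 12.9 to 19.0 of input (median 14.7) in the remote myocardium. There the groups did not overlap and the log2 fold change was 1.11 (SE 0.18, edgeR adjusted p 1.25e-07). For the area at risk it was 0.66 (SE 0.22, adjusted p 0.0225), and the call was lost without mouse 22 (adjusted p 0.123) and without mouse 30 (0.136).

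Zfp462 and Zfp423 were the lone genes with the most regions higher than input. Zfp462 encodes a protein that recruits the Ehmt1 and Ehmt2 methyltransferases in embryonic stem cells. All 6 of its regions were called higher than input in the remote myocardium and 4 of 6 in the area at risk. Its region on chromosome 4 from 54957400 to 54959799 held 29.2 to 45.1 CPM of H3K9me2 (median 33.1) against 12.4 to 21.0 of input (median 18) in the remote myocardium, without overlap. Area-at-risk libraries held 26.9 to 37.4 (median 32.9) against 16.2 to 29.4 (median 22.4), with overlap. The log2 fold changes were 0.93 (SE 0.17, edgeR adjusted p 2.50e-06) and 0.51 (SE 0.18, adjusted p 0.0320). In the area at risk its highest region, from 54969800 to 54972399, stood at 0.74 (edgeR adjusted p 0.00191) with 5 of 6 mice higher. The highest one with 6 of 6 mice higher (0.68, from 55024200 to 55025799) was no longer called without mouse 19 (edgeR adjusted p 0.0600) or mouse 23 (0.0947).

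Zfp423, a partner of Ebf1 and a factor of fat cell commitment, had 13 of 26 tested regions higher and 1 lower in the remote myocardium, and 4 higher and 1 lower in the area at risk. Over all tested regions 20.5% and 11.3% were higher, so its count in the area at risk lay near the background. The Zfp423 body region on chromosome 8 from 87852000 to 87854599 held 28.7 to 50.8 CPM of H3K9me2 (median 43.9) against 17.4 to 35.0 of input (median 23.6) in the remote myocardium. Area-at-risk values were 30.3 to 41.2 (median 32.9) against 15.7 to 29.1 (median 24.7). The groups overlapped in the remote myocardium and not in the area at risk, with log2 fold changes of 0.73 (SE 0.15, edgeR adjusted p 3.52e-05) and 0.52 (SE 0.18, adjusted p 0.0254). Zfp536, a repressor of neuronal differentiation, had 5 tested body regions with gene means of 0.57 for the area at risk and 0.72 for the remote myocardium. Its highest region in the area at risk (0.86) was not called without mouse 19, 22 or 30, at edgeR adjusted p values of 0.127, 0.0527 and 0.0526. Zfp366, which encodes a co-repressor of dendritic cells (0.78), and Zfp618, a reader of oxidised methylcytosine with Uhrf2 (0.64), were also among the highest in the area at risk, and Zfp950 (0.93, at a region near Grk5) in the remote myocardium. Zfp366 was not high throughout, since another of its 5 regions was called lower in the area at risk (-0.59, edgeR adjusted p 0.0484), its gene mean was 0.08 there and -0.08 in the remote myocardium, and no region was called in the latter.

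Zfp469, the counterpart of a gene of brittle cornea syndrome, had 44 regions, the most of any member. Of 30 tested in the remote myocardium 1 was higher and 5 lower, against 20.5% and 20.0% over all tested regions. The lowest Zfp469 region, on chromosome 8 between 122273000 and 122279599, stood at -1.30 (SE 0.18, edgeR adjusted p 2.23e-10). Without Zfp423 and Zfp469 the lone class had 11 higher and 31 lower of 195 regions in the area at risk and 30 higher and 59 lower of 193 in the remote myocardium, with a median of -0.16 in both tissues.

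Zfp809, Zfp568 and Zfp445 encode repressors with known targets, and these 3 were chosen after their values were seen. Zfp809, which silences murine leukemia proviruses, had 1 tested region, at -0.43 in the area at risk, where it was not called, and at -0.88 in the remote myocardium, where it was called lower. Zfp568, which silences a placental Igf2 promoter, had gene means of -0.19 and -0.52 over 3 regions, of which 1 was called lower in the remote myocardium. Zfp445, a factor of imprinted loci, had no region called in either tissue.

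The comparison of H3K9me2 between the biopsies asks whether Zfp genes carry the mark differently in the occluded and the perfused tissue. No Zfp region passed. Of 280 tested regions of 127 genes, edgeR and DESeq2 each called 0, as over all 31526 regions (0.0% called), and 11 had an unadjusted p under 0.05 (4.03% over all regions). The smallest adjusted p was 0.999. Medians of gene means were -0.02 for clustered and 0.07 for lone genes. On data simulated at this depth, 71% of regions changed 2-fold and 11% of those changed 1.5-fold were recovered, so a difference of this size can be missed.

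The region of smallest p was at Zfp647, chromosome 15 from 76924000 to 76925999, and held 15.4 to 22.0 CPM of H3K9me2 (median 18.4) in the area at risk against 6.90 to 15.2 (median 10.9) in the remote myocardium. The ranges did not overlap and 6 of 6 mice were higher in the area at risk, with a log2 fold change of 0.69 (SE 0.26, edgeR adjusted p 0.999). Over all regions 1.38% were higher in 6 of 6 mice and 1.42% lower, and among Zfp regions 5 and 2 of 280 were. Zfp664 (0.51) and Zfp142 (0.50) came next on the higher side. On the lower side Zfp362 (chromosome 4 from 128793800 to 128798199) held 9.35 to 19.6 CPM (median 12.9) in the area at risk against 13.8 to 29.6 (median 20.0), lower in 6 of 6 mice. Its log2 fold change was -0.59 (SE 0.24, edgeR adjusted p 0.999), and its input went the same way at -0.36 (SE 0.15), with 5 of 6 mice lower. Zfp462 (-0.38) and Zfp469 (-0.39) followed.

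Inputs of the biopsies gave no call at 405 tested Zfp regions by edgeR, nor by DESeq2 (0.0% called over all regions). By edgeR 9 had an unadjusted p under 0.05, against 2.72% over all regions. The smallest p values were at Zfp672 (0.54), Zfp950 (0.56) and Zfp287 (0.28) on the higher side and Zfp516 (-0.73), Zfp362 and Zfp469 (-0.25) on the lower.

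The difference between the input-corrected values of the tissues was tested as an interaction over 24 libraries. None of 405 Zfp regions passed (0.0% called over all 42445), and 17 had an unadjusted edgeR p under 0.05, against 4.07% over all regions. The test recovered 28% of 2-fold changes in simulated data. The lowest p belonged to a body region of Zfp335, which encodes a subunit of histone H3 lysine 4 methyltransferase complexes, on chromosome 2 from 164894800 to 164896599. H3K9me2 there ran from 8.56 to 20.6 CPM (median 15.2) for the area at risk and 1.58 to 12.7 (median 6.71) for the remote myocardium. Input ran from 11.8 to 21.1 (median 19.8) and from 13.3 to 24.8 (median 20.4). The interaction was 1.26 (SE 0.37, edgeR adjusted p 1.00), with 4 of 6 mice in that direction. Of the 5 tested regions of Zfp335, 3 were lower than input for the area at risk (gene mean -0.44) and 4 for remote tissue (-0.87).

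Zfp704, a glucocorticoid-induced gene, followed with a region on chromosome 3 from 9601400 to 9602999. H3K9me2 ran from 7.54 to 18.2 CPM (median 11.6) for the area at risk and from 1.27 to 9.20 (median 5.34) in the remote myocardium. The interaction of 1.50 (SE 0.45) had the same direction in 6 of 6 mice (edgeR adjusted p 1.00). Zfp276 (1.00) was next on this side. Zfp462 (-0.50), Zfp575 (-0.42) and a further region of Zfp704 (-0.54) had the smallest p on the other. Gene means of the interaction lay below 0 for 55 of 82 clustered genes (median -0.07) and above 0 for 48 of 72 lone genes (median 0.09). By region, 67 of 149 clustered and 139 of 256 lone ones lay above 0, against 21620 of 42445 over all tested regions. These counts describe the members and carry no test.

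Genes that work with KRAB zinc finger proteins were examined as a list of 21, of which 20 were found in the annotation and 17 had a tested region. In the area at risk 9 of the 17 genes had a region lower than input and none a higher one, and in the remote myocardium 11 had a lower one and 1, Pphln1, also a higher one. Over regions this was 13 lower of 48 (27.1%), and 16 lower (33.3%) with 1 higher of 48, against 12.3% and 20.0% lower over all tested regions and 33.2% and 45.5% at start sites of other protein-coding genes. By DESeq2 these counts were 8 and 14, all lower. The medians were -0.26 and -0.33 against 0.01 over all tested regions. The values that follow are each gene's region of smallest p, first for the area at risk and then for the remote myocardium. Trim28, the co-repressor that KRAB domains bind, had -0.82 and -1.09 at a region over its end or within 2 kb of it. In each tissue this was the only region called of 3 tested at Trim28. Ehmt2 had -0.73 and -0.74. Ehmt1 had -0.56 in the area at risk, where it was not called (edgeR adjusted p 0.0897), and -0.96 in the remote myocardium, where it was. The NuRD remodellers Chd3 (-0.93 and -1.48) and Chd4 (-0.55 and -1.15) were lower in both tissues. Setdb1 had -0.32 in the area at risk, where it was not called (edgeR adjusted p 0.127), and -0.57 in the remote myocardium, where it was. No region of these genes was called between the biopsies.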

How the data were processed

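H3K9me2 and input chromatin of 6 mice were compared in 2 biopsies. Bowtie2 2.2.2, SICER 1.1 and edgeR are named per the submitters' processing notes, and their roles, the treatment of multiply matching reads and of duplicates are not given in the sources used here. The authors' 4 deposited tables share 1 set of mm10 regions and hold counts, whole numbers per region and library, and per the file headers a log2 fold change, a log2 mean CPM, a p-value and an FDR. Coordinates are those of the files.

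Genes and start windows came from RefSeq (GRCm38.p6). Contrasts were fitted to the deposited counts with edgeR 4.0.16 (R 4.3.3; TMM, filterByExpr, two-sided quasi-likelihood test, Benjamini-Hochberg FDR 0.05 over all tested regions), with 12 libraries each and 24 for the interaction. DESeq2 1.42.0 was the other tool. The fits were tested on simulated data. The ratio of class sums used TMM-scaled CPM. The members, gene lists and tests were chosen with earlier results of these data known. In each input contrast the text names the 10 genes with the lowest and the 10 with the highest region called and moved alike in 6 of 6 mice, in the other contrasts the 3 regions of smallest p each way, then the 5 largest clusters, the genes nearest the 200 kb limit and the partner list. Mouse numbers pair the samples, since a number is an animal in the labels. Deviations of same-mouse libraries correlated from -0.22 to 0.07 between H3K9me2 libraries, from -0.07 to 0.04 between inputs, and between the mark and its input from -0.01 to 0.18 (area at risk) and from 0.01 to 0.09 (remote). Alternatives were the mouse as a block, median-of-ratios size factors, DESeq2, no filter, each mouse left out, other cluster limits and other choices of regions.

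In the authors' deposited tables, 80 of the 520 Zfp regions had an FDR under 0.05 for the area at risk and its input (29 with more H3K9me2, 51 with less) and 164 in the remote myocardium (75 higher, 89 lower), of which 75 and 155 were also called in the fits here. Between the biopsies these tables had 0, for H3K9me2 and for input.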

Additional observations from a re-analysis of the deposited data

Results flagged for a closer look

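The check used 84 groups of 6 values, from part of the named regions and from sums or ratios of the clustered and lone classes and the chromosome 4 cluster. In each the highest or lowest value was compared with its neighbour, and 3 stood apart, where chance alone sets apart about 1 in 20 groups. The input of the remote myocardium at the Zfp993 region was lowest in mouse 30, at 4.25 CPM with the next at 7.38. H3K9me2 of the remote myocardium at the Zfp462 region from 54957400 was highest in mouse 23, at 45.1 CPM with the next at 34.9. H3K9me2 of the area at risk at the Zfp423 region from 87852000 was highest in mouse 19, at 41.2 CPM with the next at 34.3.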

How the results depend on the processing

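Counts over all Zfp regions moved by less than 1.5 times under the alternatives run, while counts in subsets moved more in the area at risk. With each mouse left out in turn they were 68 to 90 for the area at risk against input (89 with all mice) and 147 to 161 for the remote myocardium (167), and stayed at 0 in the other contrasts. DESeq2 called 62 and 143. With the mouse as a block the counts were 103 (45 higher, 58 lower) and 172 (80 and 92), 0 in the other contrasts, and the block ended no call of a named region. By DESeq2 the higher regions of the area at risk fell from 21 to 12 in clustered genes and from 14 to 7 in the chromosome 4 cluster, and lower partner regions from 13 to 8. With a mouse left out these clustered and cluster counts ran from 16 to 20 and from 9 to 14, clustered lower ones from 11 to 18 (18 with all mice), and lower lone start sites from 14 to 18 (21 with all mice, 14 by DESeq2).

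The median gene mean of clustered less lone genes moved more. It was 0.11 in the area at risk and ran from 0.10 to 0.19 with a mouse left out, the highest without mouse 23. In the remote myocardium it was 0.29 and ran from 0.24 to 0.31. Each gene's region of smallest p gave 0.25 and 0.54, regions near gene ends 0.20 and 0.55, and gene bodies 0.0278 and 0.0671. Among alternatives chosen after seeing the data, start-site regions gave 0.38 and 0.64, regions near no other coding gene 0.21 in the remote myocardium, and leaving out the chromosome 4 cluster 0.06 and 0.25. The cause was not tested. The difference between biopsies was -0.09, and -0.00 without mouse 23.

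None of 58 named regions reversed under an alternative. Of these, 18 came from the contrasts between biopsies and had no call to lose. Of the 40 from the contrasts with input 3 lost their call, all in the area at risk. These were Zfp536, Zfp462 and Zfp811, whose adjusted p without a mouse stands in the report, and DESeq2 gave Zfp811 0.0548. Counts cover reads in listed regions only, and depth outside them is unknown. The edgeR test recovered 75% and 77% of simulated 2-fold changes against input, and 24% and 38% of 1.5-fold changes.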

Other observations

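Markers of heart cell types held few listed regions. Of 8 cardiomyocyte genes 4 had one, of 5 fibroblast genes 2, of 4 endothelial genes 3 and of 5 leukocyte genes 2. No region of these genes was called between the biopsies, in H3K9me2 or in input, by edgeR or DESeq2. Against input in the remote myocardium 1 of 6 cardiomyocyte regions, 4 of 6 fibroblast regions, 2 of 12 endothelial regions and 2 of 3 leukocyte regions were lower, and 1 leukocyte region was higher, by edgeR at an FDR of 0.05, against 20.0% lower and 20.5% higher over all regions. In the area at risk 0 of 6, 1 of 6, 3 of 12 and 1 of 3 were lower, and 1 endothelial and 1 leukocyte region were higher, against 12.3% lower and 11.3% higher. Of the 6 cardiomyocyte regions 2 had an unadjusted edgeR p under 0.05 there, and DESeq2 called 0.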
